A study of Homo sapiens with 29 samples.

Results

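The genes described here encode the nuclear-encoded subunits of the 5 oxidative phosphorylation complexes. Members were all genes whose symbol in the platform's probe annotation begins with one of the subunit prefixes (NDUFA, NDUFB, NDUFC, NDUFS, NDUFV, UQCR, COX4I, COX5 to COX8, ATP5F1, ATP5M, ATP5P) or is CYC1 or an SDH subunit gene. NDUFAF assembly factors, pseudogenes and an antisense RNA were left out. This left 82 of the 20046 genes with a probe on the array, measured by 109 probes. Complex I had 36 of them, complex II 3, complex III 9, complex IV 17 and complex V 17. The data came from HuES6 cells, a line of human embryonic stem cells, over 8 days of differentiation toward heart muscle. Cells of the FB arm received FGF2 and BMP4 without the WNT-activating compound, those of the BW arm BMP4 and the WNT activator without FGF2, and those of the FW arm FGF2 and the WNT activator without BMP4. Cells of the FBW arm received all 3 on day 0. The concentrations were 10 ng/ml for FGF2, 1 ng/ml for BMP4 and 1 µM for the WNT activator, which the labels name CHIR00921. The labels give each arm's factors in its sample descriptions, and 1 protocol text for all samples, by which all arms shared the plating on Matrigel, the withdrawal of insulin after day 0 and, on days 2 and 3, 2 µM of IWP-2, which blocks WNT secretion. Each arm had 1 array on each of days 1, 2, 3, 4, 5, 6 and 8, and undifferentiated cells had 1 array on day 0.

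Oxidative phosphorylation takes place in the inner mitochondrial membrane. Complexes I (NADH dehydrogenase) and II (succinate dehydrogenase) pass electrons to ubiquinone, complex III passes them to cytochrome c and complex IV (cytochrome c oxidase) to oxygen. Complexes I, III and IV pump protons, and complex V (ATP synthase) uses the proton gradient to make ATP. A few subunits are encoded in mitochondrial DNA, and these are not analysed here. Heart muscle is rich in mitochondria, and complex IV has subunit isoforms that are known from heart and skeletal muscle, COX6A2 and COX7A1 among them, beside the widely expressed COX6A1 and COX7A2.

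Levels below are normalised log2 signals, so that a difference of 1 is a doubling, and a gene counted as detected on an array where its detection p was under 0.01. Of the 82 members, 68 were detected on all 29 arrays and 76 on at least 3. The arrays detected between 34.3% and 39.7% of all probes. The number of arrays limits the precision. With 1 array per arm and day, the tests between arms took the days of a window as their repeats. Their p-values measure how steady a difference was over those days, not how repeated differentiations would vary. Days next to each other are not independent. All 3 comparisons used the same FBW arrays. The labels state that the FBW arrays of days 3 and 6 also belong to another series. Because whole cultures were measured, a larger share of cells rich in these transcripts and a higher level per cell cannot be told apart. The cardiomyocyte list held mainly sarcomere and calcium-handling genes, named NPPA, NPPB and MB as well, and had 20 genes with a probe. Its mean level on day 8 was 6.48 in FB, 9.00 in BW and 6.14 in FW, against 9.78 in FBW. On day 0 it was 5.49. On day 8, 10 of the 20 were detected in FB, 19 in BW and 11 in FW, against 19 in FBW.

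In the FBW arm the subunit genes as a group stood near their day 0 level until day 5 and above it on days 6 and 8. The median level of the 68 always detected members was 10.93 on day 0. In FBW it was 10.86, 10.94, 11.02, 10.81, 10.97, 11.29 and 11.50 on days 1, 2, 3, 4, 5, 6 and 8. Taken gene by gene against day 0, the median difference in FBW was -0.19, -0.02, 0.28 and 0.72 on days 4, 5, 6 and 8. Over all genes measured on those arrays the median difference on day 8 was -0.02. On day 8, 46 of the 75 members detected on at least 1 of both arrays were over 1.5-fold higher in FBW than on day 0 and 0 were over 1.5-fold lower. COX6A2, NDUFA5 and NDUFC2 are among the 46 but were not detected on day 0, so they entered only through the FBW array. Over all genes, 25.2% were that much higher and 24.3% that much lower. These differences rest on 1 array against 1 array and have no test. The members are bright genes. Among genes with a mean level of 10 or more that were detected on all arrays, the 48 members had a median difference of 0.71 on FBW day 8 and the 1267 others one of -0.13.

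**Figure D1:**
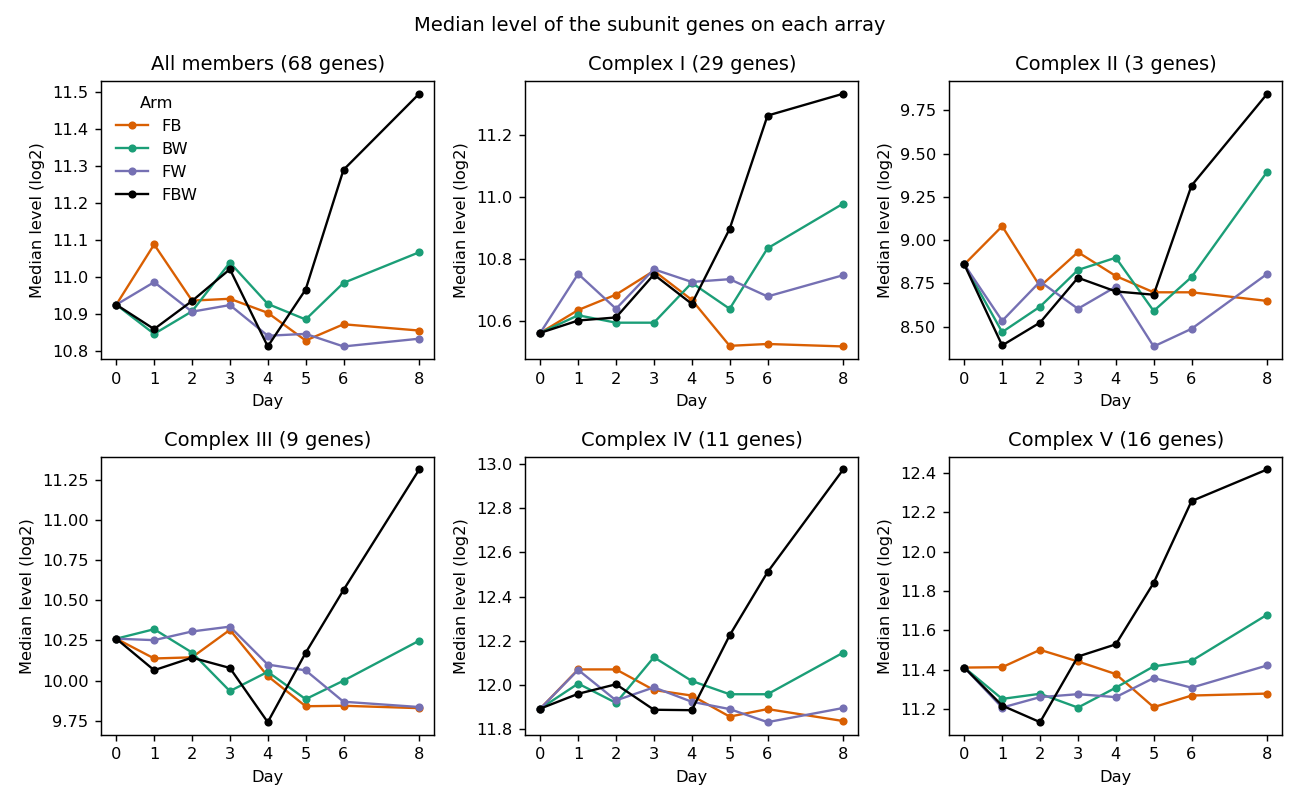
Median normalised log2 level of the always detected members on each array, for all 68 and for each complex, by day and arm (orange FB, green BW, purple FW, black FBW). The panels have different vertical ranges. All arms start from the single day 0 array, and on day 8 the medians of all 68 stand at 10.86 in FB, 11.07 in BW and 10.83 in FW, against 11.50 in FBW.

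The other arms did not show this day 8 level. Against day 0, the median member difference on day 8 was -0.19 in FB, 0.09 in BW and -0.12 in FW. In FB, 2 of 72 members were over 1.5-fold higher and 10 over 1.5-fold lower, beside 18.1% and 20.5% of all genes. BW had 7 of 74 higher and 3 lower, beside 20.2% and 20.3% of all genes. COX6A2 and NDUFA5 are among these 7 but were not detected on day 0. FW had 5 of 74 higher and 6 lower, beside 17.5% and 19.5% of all genes. When the arrays were only scaled to a common median, with no quantile normalisation, the day 8 medians of the members against day 0 were -0.33 in FB, 0.02 in BW, -0.29 in FW and 0.56 in FBW, and those of all genes were -0.14 in FB, 0.01 in BW, -0.18 in FW and -0.10 in FBW.

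All 5 complexes had a positive median difference in FBW on day 8, although the members within a complex differed. Complex V, the ATP synthase, had a median difference of 0.84 with 12 of 17 members over 1.5-fold higher, and complex IV one of 0.81 with 9 of 12. Complex I had a median difference of 0.66 with 21 of 34. COX6A2 in the complex IV count and NDUFA5 and NDUFC2 in the complex I count were not detected on day 0. They entered only through the FBW array, so that nothing is read from their part in the counts. Complexes III and II stood at 0.40 with 3 of 9 and at 0.22 with 1 of 3. Of all genes 25.2% were that much higher, so the counts of complexes III and II are near that share and no result about them. On day 6 complex V was already at 0.53, with 8 of 17 members over 1.5-fold higher, while complex III was at 0.00 with 1 of 9, beside 22.8% of all genes. In complex I the largest difference was that of NDUFA6, an accessory subunit, with a log2 level of 10.08 on FBW day 8 and 8.08 on day 0. It was followed by the accessory subunits NDUFA10 at 1.41, NDUFA8 at 1.31 and NDUFB5 at 1.25, and by NDUFV1, the core subunit that binds NADH, at 1.22. At the other end, 6 complex I genes were at or below their day 0 level, namely NDUFB1 at -0.31, NDUFS5 at -0.30, NDUFV3 at -0.24, NDUFV2 at -0.15, NDUFAB1 at -0.06 and NDUFA7 at -0.06. Outside complex I all measured members had a positive difference on FBW day 8. In complex III, UQCRC2 and UQCRC1, the core proteins, were 1.11 and 1.05 above day 0. In complex IV, COX5B was 1.37 above day 0, and COX7C only 0.16. In complex V, ATP5MC1 and ATP5F1E, which encode a subunit of the c ring and the epsilon subunit, were each 1.45 above day 0.

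**Figure D2:**
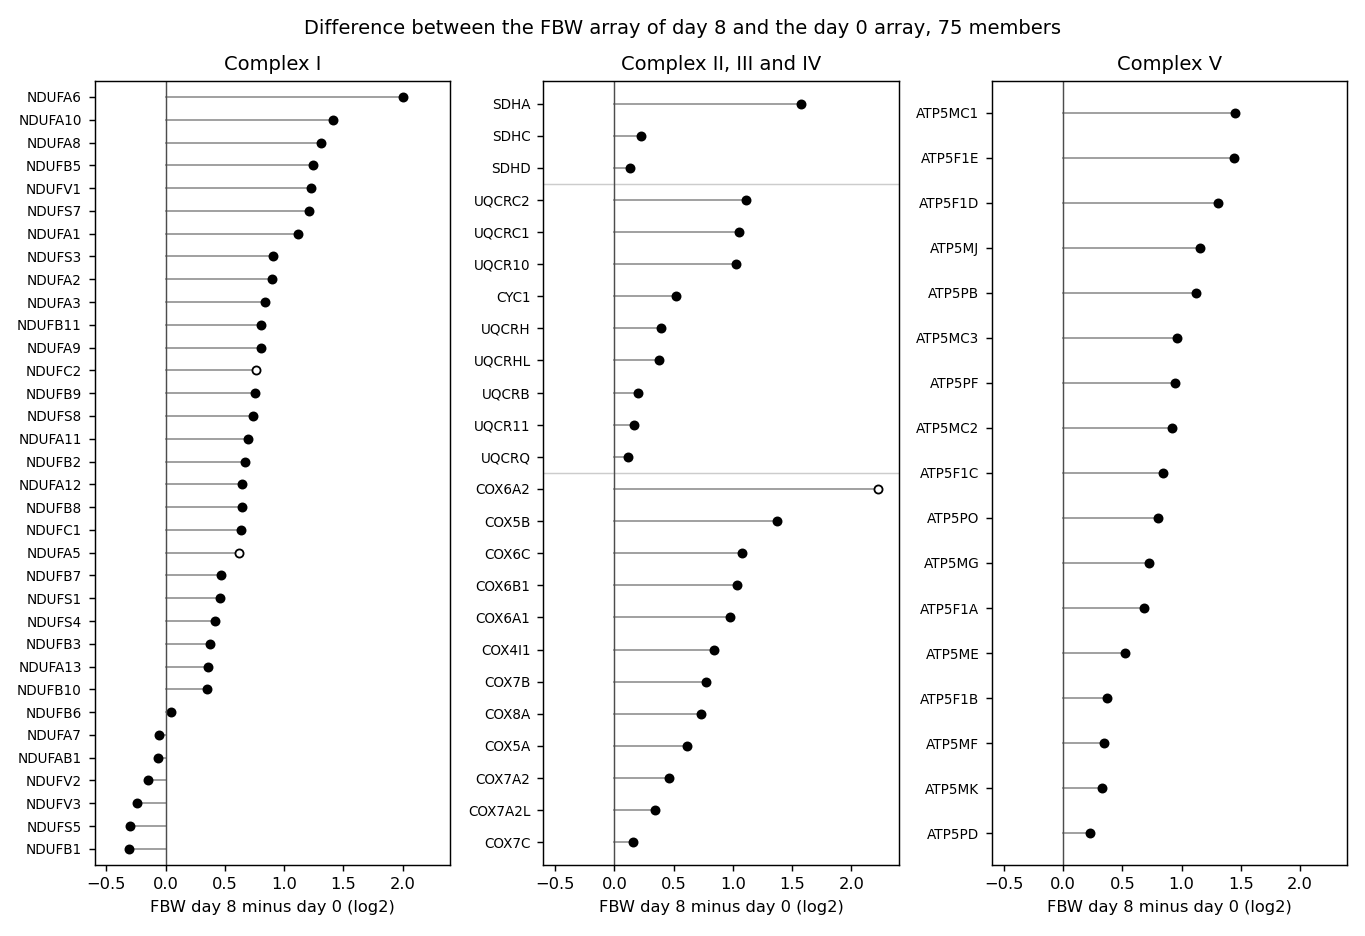
Difference in normalised log2 level between the FBW array of day 8 and the day 0 array, 1 point for each of the 75 members detected on at least 1 of both arrays, sorted within each complex. Open points mark COX6A2, NDUFA5 and NDUFC2, which were not detected on day 0, so that their day 0 value is background. Of the members detected on both arrays NDUFA6 lies highest at 2.00 and NDUFB1 lowest at -0.31, and the negative values are all in complex I.

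Over days 4 to 8, many subunit genes were lower in each arm that lacked 1 factor than in FBW. A gene counted as lower or higher at an adjusted p under 0.05, over all 12060 genes tested in that window. Of the 74 members tested, FB had 33 lower and 0 higher, beside 26.1% and 27.9% of all genes. BW had 20 lower and 0 higher, beside 12.5% and 13.2%. FW had 32 lower and 1 higher, beside 28% and 29.9%. NDUFC2, among the 33 in FB, was detected on no FB or BW array of days 4 to 8. COX6A2 was detected on none in FB and FW, and NDUFA5 on none in FB. Nothing is read from their part in the counts and medians of those arms. The median member difference was -0.32 in FB, -0.28 in BW and -0.32 in FW, where the median over all genes was 0.02 in FB, 0.00 in BW and 0.03 in FW. The difference was negative in 66 members in FB, 68 in BW and 62 in FW. The counts rest in part on single days. Leaving out day 6 gave 19 called members in FB, 3 in BW and 18 in FW, and in BW leaving out day 5 gave 4 and day 8 gave 10. Fitting only the pair of arms compared gave 18 called members in FB and 18 in FW. In BW, leaving out the FBW arrays of days 3 and 6 gave 8 called members and a fit without day as a block gave 5.

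**Figure D3:**
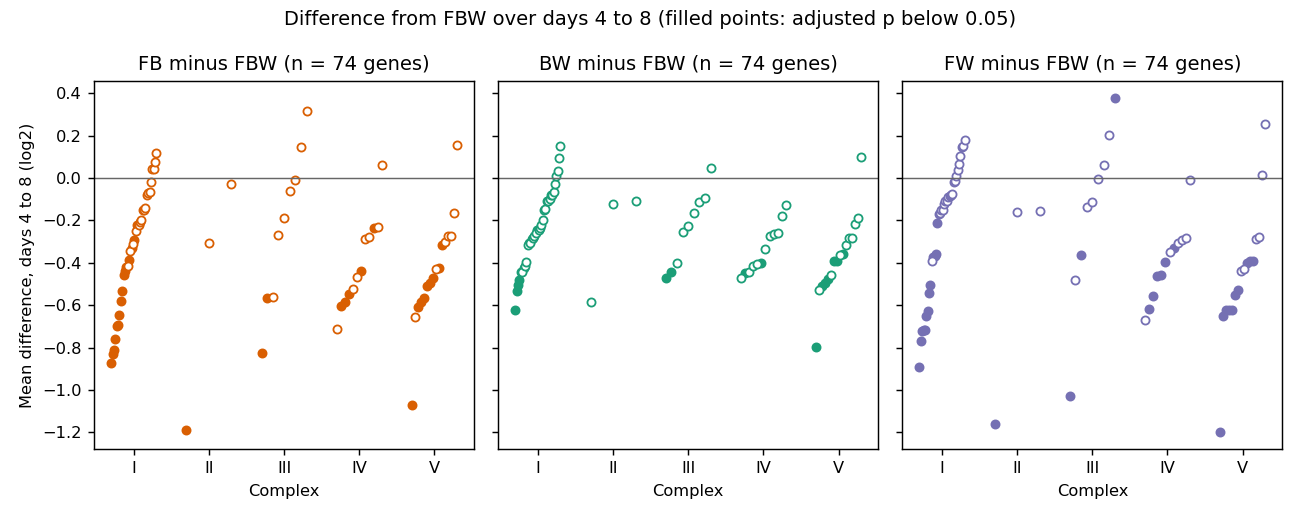
Mean difference from FBW over days 4 to 8 (log2) for each of the 74 tested members, by complex, in FB, BW and FW. Filled points have an adjusted p below 0.05 by limma over all genes tested, and points within a complex are sorted by their value. In FB the filled points include NDUFC2, which was detected on no FB array of these days. Most points lie below 0 in all 3 panels, and the single filled point above 0 is UQCRQ in FW, at 0.38.

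In complex I, 16 of 34 tested members were lower in FB, 9 in BW and 13 in FW. NDUFC2 is among the 16 in FB, but was detected on no FB or BW array of days 4 to 8. It entered the test only through FBW and FW arrays, so nothing is read from its call in FB. Of all genes 26.1% were lower in FB, 12.5% in BW and 28% in FW. NDUFA10, an accessory subunit, had log2 levels of 8.75, 8.69, 8.98 and 9.33 in FB, of 9.29, 9.15, 9.34 and 9.76 in BW and of 8.91, 8.92, 9.16 and 9.38 in FW on days 4, 5, 6 and 8, against 9.56, 9.68, 9.78 and 10.21 in FBW. FBW was the highest arm on each of those days, and the FB and FW values did not overlap with those of FBW. The difference was -0.87 ± 0.07 in FB (SE, adjusted p = 2.10e-06), -0.43 ± 0.07 in BW (adjusted p = 0.00148) and -0.72 ± 0.07 in FW (adjusted p = 7.72e-06). NDUFB5, also an accessory subunit, differed by -0.83 ± 0.13 in FB, -0.53 ± 0.13 in BW and -0.89 ± 0.13 in FW, with all 4 days negative in each arm. NDUFA1, whose product sits in the membrane arm, had the largest complex I difference in BW, at -0.62 ± 0.18 (adjusted p = 0.024, negative on 3 of 4 days), and in FW it differed by -0.77 ± 0.18. The core subunit gene NDUFV1 was lower in FB at -0.65 ± 0.13 and in FW at -0.65 ± 0.13, while BW was at -0.28 ± 0.13 with an adjusted p of 0.12. NDUFS1, which encodes the largest core subunit, passed the test in none of the arms. Its differences were -0.25 ± 0.21 in FB, -0.40 ± 0.21 in BW and -0.09 ± 0.21 in FW, and its probe was dim and detected on 22 of 29 arrays.

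Complex II was measured through SDHA, SDHC and SDHD. SDHA encodes the flavoprotein that oxidises succinate in the citric acid cycle, and it was lower in FB and FW. Its log2 levels on days 4, 5, 6 and 8 were 7.95, 8.00, 8.11 and 8.12 in FB, 8.13, 8.30, 8.79 and 9.40 in BW and 8.06, 8.04, 8.03 and 8.18 in FW, against 8.28, 8.68, 9.55 and 10.44 in FBW. All FB and FW values lay below the lowest FBW value, and BW lay between them and FBW on all 4 days. The difference was -1.19 ± 0.27 in FB (SE, adjusted p = 0.00298) and -1.16 ± 0.27 in FW (adjusted p = 0.00311), with all 4 days negative. In BW it was -0.58 ± 0.27 with an adjusted p of 0.13. The second SDHA probe gave -1.18 ± 0.31 in FB. SDHC and SDHD, the membrane anchors, passed the test in none of the arms, with differences between -0.31 and -0.03 in FB. The promoter of SDHA, in which every hit of the NRF1 motif letters is in capitals, held that motif 4 times on the minus strand, with first bases at -166, -117, -68 and -19 from the start. NRF1 is a transcription factor known from the promoters of many respiratory chain genes. The window lies at chr5:218070-218369 on the plus strand of GRCh38.p14, from RefSeq.
SDHA: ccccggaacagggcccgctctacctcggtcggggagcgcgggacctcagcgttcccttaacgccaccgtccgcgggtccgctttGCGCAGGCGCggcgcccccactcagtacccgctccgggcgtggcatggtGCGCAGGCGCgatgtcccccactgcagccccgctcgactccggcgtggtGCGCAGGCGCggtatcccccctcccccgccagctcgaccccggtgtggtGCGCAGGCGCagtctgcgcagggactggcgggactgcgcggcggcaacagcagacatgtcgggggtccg

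Complex III had 2 of 9 members lower in each arm, and the only higher one of all members. The share of all genes lower was 26.1% in FB, 12.5% in BW and 28% in FW, so these counts are no result about the complex as a whole. UQCRC2, a core protein, had log2 levels of 9.15, 9.13, 9.31 and 9.30 in FB, 9.33, 9.25, 9.60 and 10.12 in BW and 9.08, 8.85, 8.85 and 9.30 in FW on days 4, 5, 6 and 8, against 9.48, 9.94, 10.10 and 10.67 in FBW. It was below FBW in each arm on all 4 days, with differences of -0.83 ± 0.15 in FB (SE, adjusted p = 0.000725), -0.47 ± 0.15 in BW (adjusted p = 0.038) and -1.03 ± 0.15 in FW (adjusted p = 0.000133). CYC1, cytochrome c1, was lower in FB at -0.57 ± 0.14 and in FW at -0.36 ± 0.14, and was at -0.17 ± 0.14 in BW with an adjusted p of 0.41. UQCRC1 did not pass, at -0.56 ± 0.23 in FB (adjusted p = 0.054), -0.40 ± 0.23 in BW and -0.48 ± 0.23 in FW. UQCRQ, a small ubiquinone-binding subunit, was higher in FW by 0.38 ± 0.15 (adjusted p = 0.041, 3 of 4 days). Its log2 levels in FW were 11.49, 11.51, 11.25 and 11.35 against 10.81, 10.70, 11.16 and 11.40 in FBW, so that FW was above FBW on days 4 and 5 and just below it on day 8. UQCRHL is a near copy of UQCRH, and the transcripts that their probes capture may overlap.

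Complex IV had 5 of 12 tested members lower in FB, 2 in BW and 6 in FW, of which the BW count is near the 12.5% of all genes. COX6B1, which clamps the oxidase dimer, was lower in each arm, at -0.55 ± 0.13 in FB, -0.45 ± 0.13 in BW and -0.56 ± 0.13 in FW, with all 4 days negative. COX8A was lower in FB at -0.60 ± 0.17 and in FW at -0.62 ± 0.17, and COX5B in FB at -0.58 ± 0.17 and in FW at -0.46 ± 0.17. COX7A2 was lower at -0.44 ± 0.13 in FB, -0.40 ± 0.13 in BW and -0.33 ± 0.13 in FW. COX7A2L, which takes part in joining complexes III and IV into supercomplexes, was lower at -0.24 ± 0.08 in FB and -0.46 ± 0.08 in FW. COX4I1, the widely expressed form of subunit 4, lay between 12.49 and 12.88 in all arms on days 1 to 6, and at 13.45 in FBW on day 8. Its differences of -0.28 ± 0.13 in FB, -0.26 ± 0.13 in BW and -0.28 ± 0.13 in FW did not pass. COX5A did not pass either, at -0.29 ± 0.19 in FB, -0.27 ± 0.19 in BW and -0.29 ± 0.19 in FW, nor did COX7B at -0.53 ± 0.24, -0.47 ± 0.24 and -0.31 ± 0.24 in the same arms.

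The muscle isoform COX6A2 appeared late and in few samples. It was detected on 3 of 29 arrays, with a log2 level of 5.01 on FBW day 6, 6.47 on FBW day 8 and 5.35 on BW day 8. On the arrays where it was not detected its signal lay between 4.19 and 4.46. Against the lowest detected signal of the other array, COX6A2 on FBW day 8 was at least 2.90-fold higher than on day 0. By the same bound it was at least 2.56-fold lower on FB day 8 and at least 2.61-fold lower on FW day 8 than on FBW day 8. Against day 0, COX6A2 was by this bound only at least 1.06-fold higher on FBW day 6 and at least 1.34-fold higher on BW day 8. Its day 8 levels were 4.28 in FB, 5.35 in BW, 4.45 in FW and 6.47 in FBW, against 4.33, 4.31, 4.36 and 4.28 in the same arms on day 1. No fitted difference or p is given for COX6A2, since it entered the fits only through the arrays where it was high. COX6A1, its widely expressed counterpart, was detected on every array and stood at 11.36 on FBW day 8, against 10.38 on day 0. Its day 8 levels in the other arms were 10.10 in FB, 10.43 in BW and 10.17 in FW. Over days 4 to 8 its differences of -0.47 ± 0.20 in FB, -0.42 ± 0.20 in BW and -0.35 ± 0.20 in FW did not pass.

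The remaining tissue isoforms stayed at background. COX7A1, the heart and skeletal muscle form of subunit 7A, was not detected on any array, and its signal lay between 4.28 and 4.64. COX4I2, the form known from lung and from low oxygen, COX7B2 and COX8C, both known from testis, were likewise detected on 0 arrays. COX6B2, also known from testis, was detected only on FW day 5, at 5.21. At this signal their presence was not detectable, which is not evidence of absence. The 3 arrays on which COX6A2 was detected are also those with the highest cardiomyocyte list means, 9.12 on FBW day 6, 9.00 on BW day 8 and 9.78 on FBW day 8. Of 8 skeletal muscle markers 1 was detected on these arrays, as on all others but BW day 2, where 2 were. Among 12711 genes, those whose levels over the 29 arrays correlated most with COX6A2 were PHACTR3 and TMEM163 (both r = 0.953), LAMA4 (r = 0.948), ITGB1BP2 (r = 0.945) and CASQ1 (r = 0.942). These correlations describe 29 arrays that share a time course, and COX6A2 was above detection on only 3 of them.

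The promoters of both subunit 6A genes are shown because the pair differed in where they were detected, from 250 bases before to 50 after the start, as RefSeq gives them for GRCh38.p14. That of COX6A2 lies at chr16:31428311-31428610 on the minus strand and that of COX6A1 at chr12:120437863-120438162 on the plus strand. Capitals mark every hit of the 6 motifs given further below.
COX6A2: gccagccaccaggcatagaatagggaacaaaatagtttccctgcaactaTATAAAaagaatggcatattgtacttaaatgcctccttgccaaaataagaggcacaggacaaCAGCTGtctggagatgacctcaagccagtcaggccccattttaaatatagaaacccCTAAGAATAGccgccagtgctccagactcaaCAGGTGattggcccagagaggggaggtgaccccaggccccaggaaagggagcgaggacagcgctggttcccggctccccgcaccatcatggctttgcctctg
COX6A1: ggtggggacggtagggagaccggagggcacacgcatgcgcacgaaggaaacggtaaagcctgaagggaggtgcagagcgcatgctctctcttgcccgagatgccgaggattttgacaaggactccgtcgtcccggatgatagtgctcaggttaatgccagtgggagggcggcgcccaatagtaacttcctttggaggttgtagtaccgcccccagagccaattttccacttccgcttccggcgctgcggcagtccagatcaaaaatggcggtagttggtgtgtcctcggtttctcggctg
In the COX6A2 window these are a TATA box from position -201, E-boxes from -139 and -52, and from -83 a match to CTA, any 4 bases and TAG, a relaxed form of the site of the muscle factor MEF2. Positions are those of the first base, counted from the start. The COX6A1 window held none of the 6 motifs. A match is a description of letters and not of binding.

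**Figure D4:**
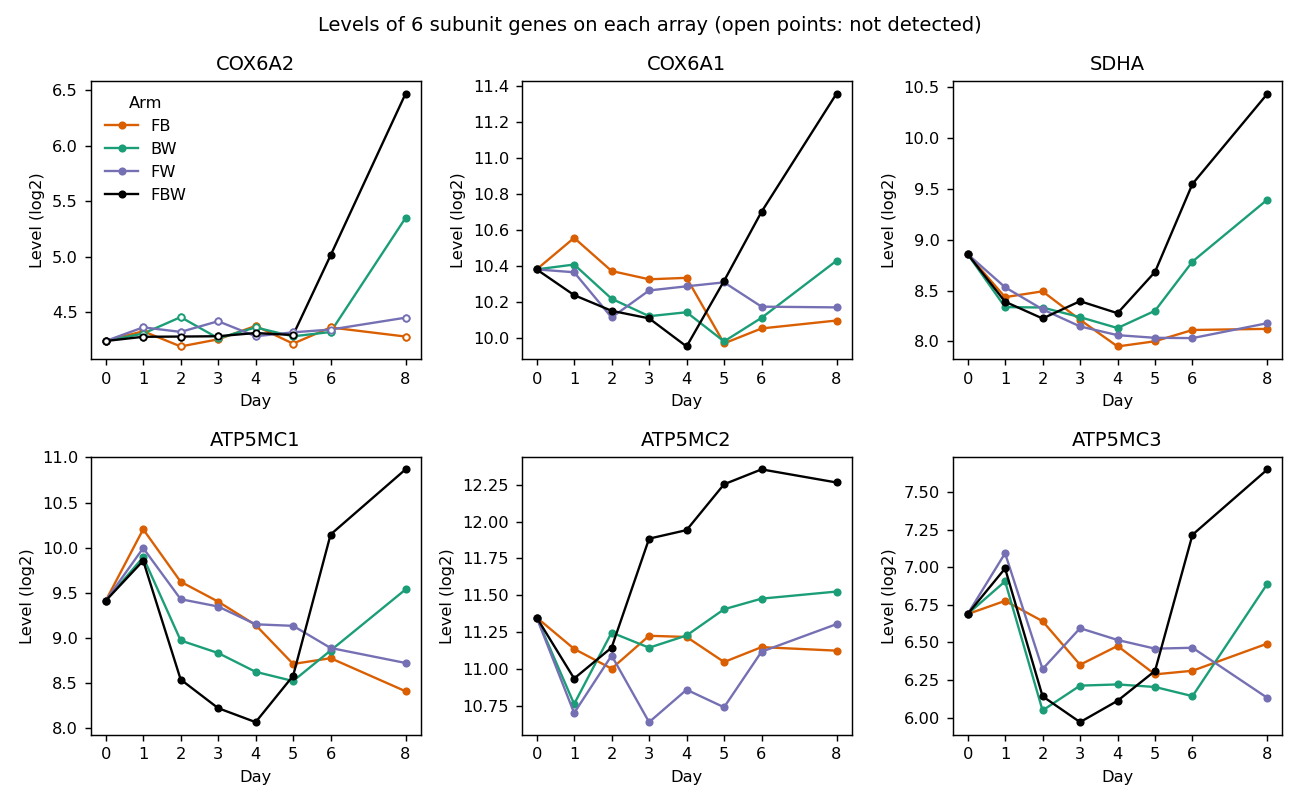
Normalised log2 level of COX6A2, COX6A1, SDHA and the 3 genes for subunit c of the ATP synthase on each array, by day and arm (orange FB, green BW, purple FW, black FBW), with open points where COX6A2 was not detected. Vertical ranges differ between panels. COX6A2 is detected on FBW days 6 and 8 and BW day 8, on FBW day 6 just above the lowest detected signal. ATP5MC2 is higher in FBW than in the other arms from day 3 onward.

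Complex V had the highest share of lower members in FB, 9 of 16, beside 26.1% of all genes. In BW 7 were lower, beside 12.5%, and in FW 10, beside 28%. The genes for the catalytic head took part. ATP5F1A, the alpha subunit, was lower at -0.51 ± 0.10 in FB, -0.36 ± 0.10 in BW and -0.62 ± 0.10 in FW, with all 4 days negative. ATP5F1B, the catalytic beta subunit, was lower at -0.43 ± 0.14 in FB and -0.39 ± 0.14 in FW, and was at -0.19 ± 0.14 in BW with an adjusted p of 0.35. ATP5F1E was lower at -0.57 ± 0.10 in FB, -0.49 ± 0.10 in BW and -0.55 ± 0.10 in FW. ATP5PF, a stalk subunit, was lower at -0.61 ± 0.17 in FB, -0.51 ± 0.17 in BW and -0.62 ± 0.17 in FW.

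The 3 genes for subunit c encode the same mature protein of the rotating ring. ATP5MC2 had log2 levels of 11.22, 11.05, 11.15 and 11.12 in FB, 11.23, 11.40, 11.48 and 11.52 in BW and 10.86, 10.74, 11.12 and 11.30 in FW on days 4, 5, 6 and 8, against 11.94, 12.25, 12.35 and 12.26 in FBW. The FBW values did not overlap with those of any other arm. The differences were -1.07 ± 0.10 in FB (SE, adjusted p = 5.44e-06), -0.80 ± 0.10 in BW (adjusted p = 0.000247) and -1.20 ± 0.10 in FW (adjusted p = 1.89e-06). The other probes of ATP5MC2 gave smaller differences in FB, -0.60 ± 0.14 and -0.58 ± 0.13. Already on day 3 ATP5MC2 stood at 11.22 in FB, 11.14 in BW and 10.64 in FW, against 11.88 in FBW. ATP5MC1 had FB levels of 10.20, 9.62, 9.40, 9.15, 8.71, 8.78 and 8.41 on days 1, 2, 3, 4, 5, 6 and 8, against 9.86, 8.54, 8.22, 8.07, 8.58, 10.15 and 10.87 in FBW. FB was thus above FBW on days 1, 2, 3, 4 and 5 and below it on days 6 and 8. On day 8 ATP5MC1 stood at 9.54 in BW and 8.72 in FW. Averaged over days 4 to 8 ATP5MC1 did not pass in any arm, at -0.65 ± 0.45 in FB, -0.53 ± 0.45 in BW and -0.44 ± 0.45 in FW. ATP5MC3 had FBW levels of 6.11, 6.31, 7.22 and 7.65 on days 4, 5, 6 and 8, against 6.69 on day 0, and like ATP5MC1 was highest in FBW on days 6 and 8. No test compared the courses of the 3 genes. The promoters of ATP5MC1, at chr17:48892537-48892836 on the plus strand, and of ATP5MC2, at chr12:53676034-53676333 on the minus strand, are given from the same source beside their values. Their only hits were E-boxes, 2 in ATP5MC1 and 1 in ATP5MC2.
ATP5MC1: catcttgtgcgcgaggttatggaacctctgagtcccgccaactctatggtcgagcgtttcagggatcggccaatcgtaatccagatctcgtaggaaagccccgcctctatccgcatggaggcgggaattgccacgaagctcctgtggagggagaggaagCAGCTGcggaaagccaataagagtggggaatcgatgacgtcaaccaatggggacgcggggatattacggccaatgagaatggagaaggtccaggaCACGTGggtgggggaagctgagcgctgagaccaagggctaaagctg
ATP5MC2: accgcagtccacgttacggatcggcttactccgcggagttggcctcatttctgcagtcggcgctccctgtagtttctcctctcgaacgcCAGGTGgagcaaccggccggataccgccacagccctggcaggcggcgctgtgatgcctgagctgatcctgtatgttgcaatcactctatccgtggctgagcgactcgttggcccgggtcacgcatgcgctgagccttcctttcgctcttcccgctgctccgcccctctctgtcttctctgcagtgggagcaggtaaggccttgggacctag

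The differences from FBW grew between day 4 and day 8. In FB the median member difference from FBW was 0.08, 0.18, 0.12, 0.11, -0.16, -0.43 and -0.86 on days 1, 2, 3, 4, 5, 6 and 8. On days 4, 5, 6 and 8 it was 0.07, -0.20, -0.40 and -0.60 in BW, and 0.03, -0.01, -0.43 and -0.74 in FW. The medians over all genes stayed between -0.02 and 0.03 on every day. On day 8, 56 of 75 members were over 1.5-fold lower in FB than in FBW, beside 22.5% of all genes. In BW 39 were, beside 12.2%, and in FW 51 were, beside 22.5%. Complex IV, with COX6A2 counted, had the largest median difference on day 8 in each arm, -1.03 in FB, -0.76 in BW and -1.09 in FW. In FB complex II, with 3 genes, was close at -1.01. On day 8 COX6A2 and ATP5MK were not detected in FB or FW, and NDUFC2 and ATP5MK not in BW. NDUFA5, NDUFB1, NDUFC2 and NDUFS1 were also not detected in FB. These genes entered the medians and counts of those arms only through FBW, and nothing is read from their part. Nothing is read from this order of the complexes. Complex III was on the other side of FBW until day 5, with FW medians of 0.35, 0.36 and 0.38 on days 3, 4 and 5 and of -0.68 on day 8.

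**Figure D5:**
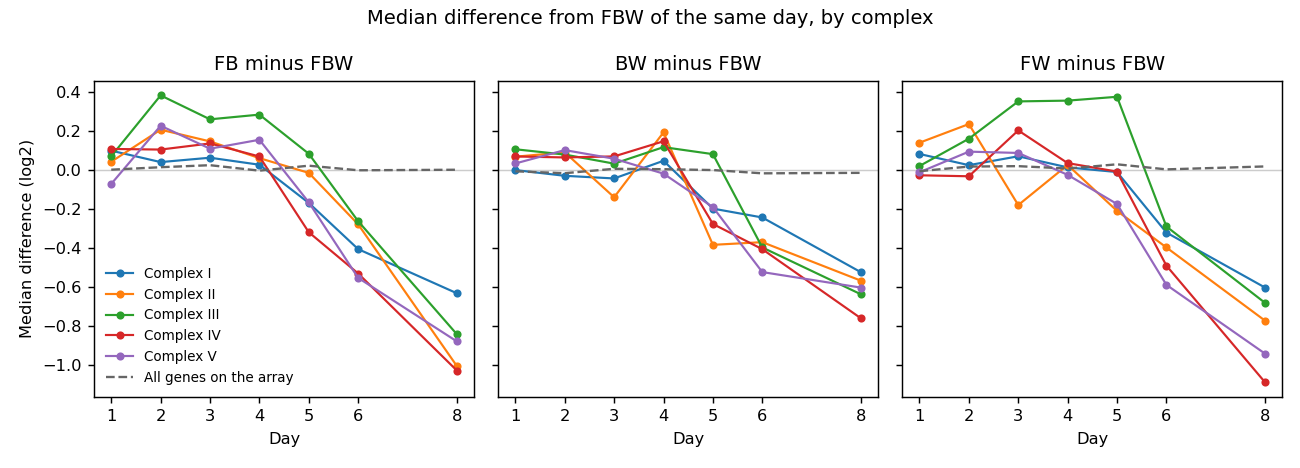
Median difference from the FBW array of the same day (log2) over the members of each complex, by day, in FB, BW and FW, with the median over all genes as a dashed line. Each point compares 1 array with 1 array. All complexes lie below 0 on days 6 and 8 in all 3 panels, between -0.52 and -1.09 on day 8.

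This growth was tested as an interaction in a comparison added after the values were seen, the difference from FBW on days 6 and 8 minus that on days 4 and 5. In FB, 24 of 74 members were lower and 0 higher, beside 4.28% and 4.22% of all genes. In BW 0 were called, beside 0.0663% of all genes called lower and 0.141% higher, and 37 members had an unadjusted p under 0.05. In FW 29 were lower and 0 higher, beside 4.89% and 4.61%. The fit has 6 residual degrees of freedom, and leaving out day 4 or day 8 gave 0 called members in FB and in FW. Leaving out day 5 gave 17 in FW. Without the FBW arrays of days 3 and 6 the counts were 45 in FB, 12 in BW and 46 in FW. The largest value was that of ATP5MC1, at -2.52 ± 0.39 in FB (adjusted p = 0.011) and -2.52 ± 0.39 in FW (adjusted p = 0.0094). Among called members SDHA followed at -1.37 ± 0.28 in FB and -1.45 ± 0.28 in FW. In complex III 5 of 9 members were called lower in FB and 6 in FW, UQCRC1 among them at -1.08 ± 0.28 in FB and -1.21 ± 0.28 in FW. In complex IV 4 of 12 were lower in FB and 6 in FW, with COX7B at -1.24 ± 0.25 in FB and -1.20 ± 0.25 in FW.

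Between the windows, the difference from FBW over days 4 to 8 minus that over days 1 to 3 was lower in 16 of 76 members in FB, beside 6.04% of all genes. In BW it was lower in 1, ATP5MJ at -0.62 ± 0.14, beside 0.442%, and in FW in 12, beside 7.16%. No member was higher, where 5.39% of all genes were in FB, 0.426% in BW and 6.77% in FW. These counts moved with the days used. In FB they were 4 without day 1, 1 without day 2, 10 without day 3, 34 without day 4, 7 without day 5, 3 without day 6 and 3 without day 8. In FW they were 2 without day 1, 2, or 6, 33 without day 4 and 6 without day 8. In BW they were 6 without day 4 and 0 without any other single day. SDHA had -1.23 ± 0.35 in FB and -1.15 ± 0.35 in FW (adjusted p of 0.030 and 0.034).

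In the window of days 1 to 3, 0 of 75 tested members were called in FB, BW or FW by limma after adjustment, beside 0.243%, 0.00869% and 0.912% of all genes. The members with an unadjusted p under 0.05 were 20 in FB, 2 in BW and 14 in FW. The median differences were 0.09 in FB, 0.02 in BW and 0.07 in FW. Leaving out day 1 gave 14 called members in FB and 12 in FW. Weighting the arrays gave 21 in FB and 11 in FW. Among the core subunits NDUFV1 was at -0.20 ± 0.11 in FB, -0.06 ± 0.11 in BW and -0.26 ± 0.11 in FW. ATP5F1B was at 0.05 ± 0.07 in FB, -0.01 ± 0.07 in BW and 0.09 ± 0.07 in FW.

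Over the 4 arms together, day 8 compared with day 1 gave no common direction. Of 76 tested members 17, COX6A2 among them, were higher on day 8 and 11 lower, beside 24.2% and 27.2% of all genes. COX6A2 entered this count only through the arrays where it was high, and nothing is read from its call. Leaving out the BW arm gave 16 called members in all. ATP5F1E was the most changed upward, at 0.97 ± 0.13 (SE, adjusted p = 4.21e-06), with all 4 arms higher on day 8. COX6B1 at 0.62 ± 0.13, NDUFB5 at 0.71 ± 0.17 and NDUFA10 at 0.59 ± 0.12 were also higher in all 4 arms. NDUFB1, a small complex I subunit, was lower at -0.98 ± 0.15 (adjusted p = 2.12e-05), with day 8 log2 levels of 4.63 in FB, 4.93 in BW, 5.09 in FW and 5.29 in FBW, against 6.16, 5.90, 6.03 and 5.76 on day 1. Its probe was dim and detected on 20 of 29 arrays. UQCR11 was lower at -0.91 ± 0.19 and UQCRQ at -0.51 ± 0.12, both in all 4 arms.

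Genes that feed or build the complexes were described through lists, to be read beside the shares of all genes, which were 26.1% lower and 27.9% higher in FB, 12.5% and 13.2% in BW, and 28% and 29.9% in FW. Of 15 citric acid cycle and pyruvate dehydrogenase genes, 10 were lower over days 4 to 8 in FB, 4 in BW and 10 in FW, and 0 were higher. Citrate synthase (CS) was lower at -0.78 in FB and -0.92 in FW, and IDH3A, a subunit of the citrate cycle's NAD-dependent isocitrate dehydrogenase, at -1.74 in FB and -1.67 in FW. The 47 tested assembly factors had 13 lower and 8 higher in FB, 5 lower and 1 higher in BW, and 10 lower and 12 higher in FW. Their lower counts in FB and BW and their higher count in FW are near the shares of all genes. Among 12 energy transfer genes 4 were lower and 2 higher in FB, 1 lower and 2 higher in BW, and 5 lower and 2 higher in FW. Of these, CKM, the creatine kinase of muscle, was at least 14.6-fold lower in FB and at least 15.1-fold lower in FW, while CKMT1A, the ubiquitous mitochondrial creatine kinase, was higher by 2.56 in FB, 1.52 in BW and 2.57 in FW. Near-identical CKMT1B may share its probes. CKM was detected on no FB or FW array of days 4 to 8 and entered the test only through other arms. Nothing is read from its part in the FB and FW counts. Among 15 regulators of mitochondrial genes 3 were lower and 5 higher in FB, 1 lower and 1 higher in BW, and 4 lower and 5 higher in FW. These regulator counts are near the shares of all genes, as are those of energy transfer genes in BW and their lower count in FB. Counts near the shares are no result about the lists. PPARGC1A, the coactivator PGC-1α, was at least 8.05-fold lower in FB and lower at -3.43 in FW. In FB PPARGC1A was likewise detected on no array of days 4 to 8, and nothing is read from its part in the FB count. TFAM, which packages mitochondrial DNA and starts its transcription, was higher by 0.56 in FB and 0.70 in FW.

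Marker lists are to be read beside the shares of all genes over days 4 to 8. These were 26.1% lower and 27.9% higher in FB, 12.5% and 13.2% in BW, and 28% and 29.9% in FW. The BW counts of lower genes below are near that share and no result about those lists. Over days 4 to 8, 15 of 19 tested cardiomyocyte genes were lower and 1 higher in FB, 3 lower in BW and 16 lower in FW. The list's mean level per array ranged over 6.04 to 6.64 in FB, 6.18 to 9.00 in BW and 5.85 to 6.14 in FW, against 6.78 to 9.78 in FBW. Of 10 cycling genes 8 were higher in FB, 4 in BW and 8 in FW, with day 8 means of 8.74 in FB, 8.17 in BW and 8.96 in FW, against 6.87 in FBW. All 7 pluripotency genes were higher in FB and FW and 5 in BW, with day 8 means of 8.44 in FB, 7.67 in BW and 8.47 in FW, against 6.15 in FBW. Of 7 surface ectoderm and amnion genes 6 were higher in FB, 5 in BW and 6 in FW, with day 8 means of 9.56 in FB, 8.74 in BW and 9.62 in FW, against 6.36 in FBW. Of 11 hypoxia and glycolysis genes 9 were lower in FB, 1 in BW and 9 in FW, and of 5 endothelial genes 4 were lower in FB, 1 in BW and 4 in FW. Of 9 smooth muscle and fibroblast genes 5 were lower and 1 higher in FB, 1 lower in BW, and 5 lower and 1 higher in FW. Of 7 endoderm and liver genes 3 were higher and 1 lower in FB, 2 higher in BW, and 1 higher and 1 lower in FW. The neural and skeletal muscle lists had 1 tested gene each. On single arrays of days 4 to 8, 9 to 11 of 20 cardiomyocyte genes were detected in FB and FW, against 9 to 19 in FBW. Of 5 endothelial genes 1 or 2 were, against 3 to 5 in FBW. FBW arrays detected 3 to 5 of 7 pluripotency genes, against 6 or 7 in FB and FW. They detected 4 or 5 of 7 surface ectoderm and amnion genes, against 7. Some called genes may thus have entered the test only through the arms where they were high. Nothing is read from such calls. The part of these cell populations in the levels of the subunit genes was not tested.

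RefSeq promoters matched 67 of the 82 members, and they were searched on both strands for 6 motifs. The NRF1 motif, GCGC, any base and then TGCGC, was in 16 of the 67, or 23.9%, beside 6.28% of all 27305 promoters of the same length. The ETS motif CCGGAAGT was in 14.9% beside 4.44%, and the ERR motif AAGGTCA in 11.9% beside 3.97%. The E-box CANNTG was in 61.2% beside 68.9% and the TATA box TATAAA in 10.4% beside 12.0%. The MEF2-like motif was in 1 member, COX6A2, or 1.49%, beside 2.83% of all. The members' promoters had a median GC share of 61%, against 58.3% over all promoters, and its part in these counts was not tested. Hits of different motifs did not overlap in the windows printed here. Among the genes described above the NRF1 motif was in NDUFA8, SDHA, SDHD, UQCRC1, UQCR11, COX8C and ATP5MJ, and in none of COX6A1, COX6A2, ATP5MC1 and ATP5MC2.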

How the data were processed

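Total RNA of 29 samples was hybridised to single-colour Illumina HT-12 arrays. The deposited tables hold the authors' non-normalised signal intensity and a detection p-value for each probe (GenomeStudio, per the submitters' processing notes, version not given in the sources used here), and a second table holds the authors' normalised signal intensity. That table had a median of 6.88 on every array and values down to -13.0. The sources used here do not describe how it was normalised. From the non-normalised intensities, normalised log2 signals were computed with neqc (offset 16) in limma 3.58.1 (R 4.3.3).

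Of 47323 probes, 30113 have 1 symbol in the platform annotation, 8 several and 17202 none. Each gene was read from its probe with the highest mean. A gene was tested where it was detected on at least 3 arrays of a fit. Arms were compared with lmFit and eBayes (trend) with day as a block, on 12 arrays for days 1 to 3 and 16 for days 4 to 8. The 28 arrays of the arms served for day 8 against day 1, where arm was the block, and for the difference between windows. Adjusted p-values are by Benjamini-Hochberg over all genes tested, at 0.05. The day block pairs the arms because the labels give the same day. The fit was tested on simulated data. Alternatives were other background corrections and scalings, the authors' values, other filters, array weights, no block, fewer arms, and leaving out days or arms.

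Members and lists were chosen with earlier results of these data known. Named genes are the tissue isoforms, the core subunits and the 2 members per complex with the largest called difference; others were chosen after their values were seen. The comparison of days 6 and 8 with days 4 and 5 and the median-only scaling were added after seeing the data. Some subunit genes are not analysed here.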

Additional observations from a re-analysis of the deposited data

Results flagged for a closer look

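The differences below are those for which an arm's difference from FBW itself differed between 2 windows of days, by limma's interaction test adjusted over all genes tested. Values are log2 and negative where the arm stood lower relative to FBW in the later window than in the earlier one.

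Between days 4 to 8 and days 1 to 3, the named members in FB were SDHA at -1.23, COX7B at -1.17, ATP5PF at -0.92, ATP5MC2 at -0.87 and NDUFA1 at -0.86. In the same arm NDUFA8 was at -0.76, UQCRC2 at -0.69 and COX7A2 at -0.67. In BW ATP5MJ was at -0.62. In FW SDHA was at -1.15, UQCRC2 at -0.91, NDUFB5 at -0.80, NDUFA8 at -0.77, ATP5F1C at -0.76, ATP5MC2 at -0.69 and ATP5F1A at -0.52.

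Between days 6 and 8 and days 4 and 5, ATP5MC1 had the largest value in both arms with calls, -2.52 in FB and -2.52 in FW. In FB, complexes I to III were represented by NDUFB9 at -1.18, NDUFA3 at -0.94, SDHA at -1.37, UQCRC1 at -1.08, UQCRB at -0.96 and CYC1 at -0.72. Complexes IV and V had COX7B at -1.24, COX7C at -1.01, COX6A1 at -0.97, COX8A at -0.88, ATP5MC3 at -1.20 and ATP5F1B at -0.83. In FW, complexes I to III had NDUFB9 at -1.22, NDUFAB1 at -0.96, SDHA at -1.45, UQCRC1 at -1.21, UQCRHL at -0.92 and CYC1 at -0.67. Complexes IV and V had COX7B at -1.20, COX6A1 at -1.02, COX5A at -0.95, COX8A at -0.91, ATP5MC3 at -1.41 and ATP5F1B at -0.61. In this comparison 0 members were called in FB and in FW without day 4 or without day 8.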

How the results depend on the processing

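No count and no named member's called value reversed under the alternatives run. Over days 4 to 8, of the named members' values under the alternatives, 287 of 324 in FB, 274 of 325 in BW and 290 of 324 in FW stayed on their side of the threshold, while 24 in FB, 46 in BW and 28 in FW lost a call. Counts of called members follow, and the cause of a change was not tested. Fitting only the pair of arms compared gave 18 for FB and 18 for FW over days 4 to 8. Without the replicate block (day), BW over days 4 to 8 had 5, the difference between windows 3 in FB, 0 in BW and 1 in FW, and that between days 6 and 8 and days 4 and 5 had 10 in FB and 14 in FW. The block changed no other count by over 1.5 times. Without the FBW arrays of days 3 and 6, BW over days 4 to 8 had 8, the difference between windows 0 in BW, and days 6 and 8 against 4 and 5 had 45 in FB, 12 in BW and 46 in FW. With array weights, days 1 to 3 had 21 in FB and 11 in FW, the difference between windows 37 in FB, 2 in BW and 23 in FW, and the later comparison 14 in FW. With no filter on dim probes, days 1 to 3 had 1 in FB, the difference between windows 0 in BW, and the later comparison 15 in FB and 16 in FW. Without a trend these last counts were 15 in FB and 16 in FW, and the difference between windows had 0 in BW, as it had with median-only scaling and with detection on every array. Leaving out each day gave 0 to 14 called members in FB and 0 to 12 in FW over days 1 to 3, and 19 to 44 in FB, 3 to 27 in BW and 18 to 38 in FW over days 4 to 8. For the difference between windows it gave 1 to 34 in FB, 0 to 6 in BW and 2 to 33 in FW, and for days 6 and 8 against 4 and 5, 0 to 25 in FB and 0 to 24 in FW. Leaving out each arm gave 16 to 34 for day 8 against day 1. Slide as a block was not run, since the tables name no slide. Dim probes near background limit the values of COX6A2, NDUFB1 and NDUFS1.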
